A study of Mus musculus with 11 samples.

Results

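Chemokine receptors were read by leukocyte and vascular cell type in 11 single-cell libraries of mouse cerebral cortex. The 9 genes were chosen by name, out of 26921 genes in the count tables, and are Ccr1, Ccr2, Ccr7, Cxcr2, Cxcr3, Cxcr4, Cxcr6, Darc and Ackr3, where Darc is the older symbol of Ackr1. Cells of myelin-depleted cortex from C57BL/6 mice were captured in droplets with the 10x 3′ v2 kit, and transcripts were counted by their unique molecular identifiers (UMIs). The study compared the cells of the brain vessels and their surroundings across age and in disease. The disease was experimental autoimmune encephalomyelitis (EAE), in which immunized mice develop brain and spinal cord inflammation like that of multiple sclerosis. The 4 juvenile libraries came from mice at postnatal day 10, the 3 adult libraries from untreated mice of 7–11 weeks and the 2 aged libraries from untreated mice of 18 months. The 2 EAE libraries came from mice of 7–11 weeks at the peak of disease after immunization with a myelin oligodendrocyte glycoprotein peptide (residues 35 to 55) in Complete Freund's Adjuvant together with pertussis toxin. Since the adult mice received neither adjuvant nor toxin, disease and these agents cannot be told apart. Where EAE is set against aged or juvenile libraries, the mice differ in age too, and disease and age cannot be told apart. Each juvenile or adult library pooled tissue of 6 mice and each aged or EAE library tissue of 3 mice, so no value belongs to a single animal.

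The libraries held 15755504 to 34326349 UMIs each, and 50625 of 54646 barcodes were kept, with 2552 to 8322 cells per library and a median of 2420 to 4199.5 UMIs per kept cell. Pairs of libraries shared 10 to 113 barcodes, at most 1.53% of the smaller library, and 1.62% of the cells were called doublets and stayed in. Adult 2 and Adult 3 differed by no more than the sampling noise and were counted as 1 sample, so the adult group has n = 2 (Adult 1, and Adult 2 and 3 summed). An alternative with library pairs joined also sums Aged 1 and 2, EAE 1 and 2, Juvenile 1 and 2 and Juvenile 3 and 4, which differed by more than that noise, and leaves 1 aged and 1 EAE sample, assumed to vary like the other groups. Adult 1 stood apart from the other adult libraries, for example in the choroid plexus transcript Ttr in its endothelial cells (ECs) (48303 CPM against 16383 and 17346 CPM, where CPM is a gene's UMIs scaled to one common total). The juvenile libraries fell into pairs, Juvenile 1 with 2 and Juvenile 3 with 4, so counting each as a sample may overstate their independence. Cell types were named from fixed marker lists, clusters by a relative marker score and subclusters also by at least 3 markers detected. Each name means "like" that type. The 9 genes and all other chemokine and receptor genes were kept out of clustering and naming. Levels are CPM of the summed UMIs of a cell type in a library, and fold changes and adjusted p values are from edgeR's quasi-likelihood test over all genes with Benjamini-Hochberg adjustment, called at 0.05, with libraries as replicates. The labels name no separate cultures or animals behind the libraries of a group, so these p values may measure technical spread alone.

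Chemokine receptors are G protein-coupled receptors through which chemokines steer the movement of leukocytes, and each receptor binds a limited set of ligands. The atypical receptors Darc and Ackr3 bind chemokines without the usual G-protein signalling. Darc is a binding site for many inflammatory chemokines on red blood cells and on the endothelium of venules, where chemokines are moved across the vessel wall and presented, and Ackr3 takes up and degrades Cxcl12, the ligand that also activates Cxcr4. Among the signalling receptors, Ccr2 guides monocytes, Cxcr2 neutrophils, Ccr7 lymphocytes and dendritic cells on their way to lymph nodes, and Cxcr3 and Cxcr6 are best known from effector T cells. In the GRCm38 build with GENCODE M21, all 9 genes are protein coding. Ccr1 (chr9:123962124-123968692, minus strand), Ccr2 (chr9:124101950-124113557, plus strand) and Cxcr6 (chr9:123806475-123811760, plus strand) lie within 307 kb of chromosome 9. Darc (chr1:173331886-173333750, minus strand), Ackr3 (chr1:90203980-90216751, plus strand), Cxcr4 (chr1:128588199-128592293, minus strand) and Cxcr2 (chr1:74153989-74161246, plus strand) lie on chromosome 1. Ccr7 is at chr11:99144196-99155077 (minus strand) and Cxcr3 at chrX:101731535-101734269 (minus strand).

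Ackr3 was found in 7102 of the kept cells (14.0%), Cxcr4 in 4494 (8.88%) and Ccr1 in 3982 (7.87%). Ccr2 was found in 2844 cells, Cxcr6 in 1960, Darc in 1095, Cxcr3 in 1054, Ccr7 in 932 and Cxcr2 in 360. Darc was high in venous ECs, Ackr3 in mural cells and most ECs, and Cxcr4 in juvenile ECs and in leukocytes. Ccr1 and Cxcr3 were read in perivascular macrophages (PVMs) as well as in leukocytes, and Ccr2, Ccr7, Cxcr2 and Cxcr6 mainly in leukocytes. In these sums of cells, more cells with a transcript and more transcript per cell cannot be told apart, so shares of cells with a UMI are given beside the main results, at a common depth of 1500 UMIs drawn per cell, with exact 95% binomial intervals that cover counting error only.

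Darc marked the venous end of the vascular tree in every condition and was far higher there in EAE. In venous ECs its level was 31.8, 65.7 and 64.4 CPM in Adult 1, 2 and 3, 91.8 and 87.1 CPM in the aged libraries, 618 and 640 CPM in the EAE libraries and 160, 100, 102 and 253 CPM in the juvenile libraries. The EAE libraries lay above the other 9 and the adult libraries below them. Aged libraries lay between adult and juvenile ones, and no conditions overlapped. In arterial ECs, the opposite end of the tree, Darc was at 0 in all 240 adult cells, at 2.03 and 0 CPM in aged, 7.51 and 10.3 CPM in EAE and at most 3.84 CPM in juvenile libraries. Against the other ECs of the same adult, aged and EAE samples, venous ECs held 43.8-fold more Darc (log2 difference 5.45 ± 0.40 SE, adjusted p = 0.0029) and arterial ECs 47.5-fold less (−5.57 ± 0.56 SE, adjusted p = 1.43e-21). The first call was lost when cells were assigned by marker score alone (log2 difference 4.04, adjusted p = 0.0533), and the second was called in all 14 alternatives, between −7.47 (without Aged 1) and −3.91 (DESeq2). With marker scores the EAE venous level was 328 CPM. These EC groups were defined from other genes of the same cells. The venous excess did not differ between EAE and adult beyond its error (log2 difference −1.51 ± 1.38 SE, adjusted p = 0.792).

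Among juvenile ECs the same order was read. Venous ECs held 12.1-fold more Darc than the other juvenile ECs (log2 difference 3.60 ± 0.16 SE, adjusted p = 6.01e-93). Arterial ECs (−4.58 ± 0.45 SE, adjusted p = 1.63e-11) and tip ECs, the cells at the front of growing sprouts (−3.58 ± 0.53 SE, adjusted p = 3.85e-08), held less. In tip ECs the 4 libraries read 0, 5.04, 2.05 and 0 CPM.

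**Figure D1:**
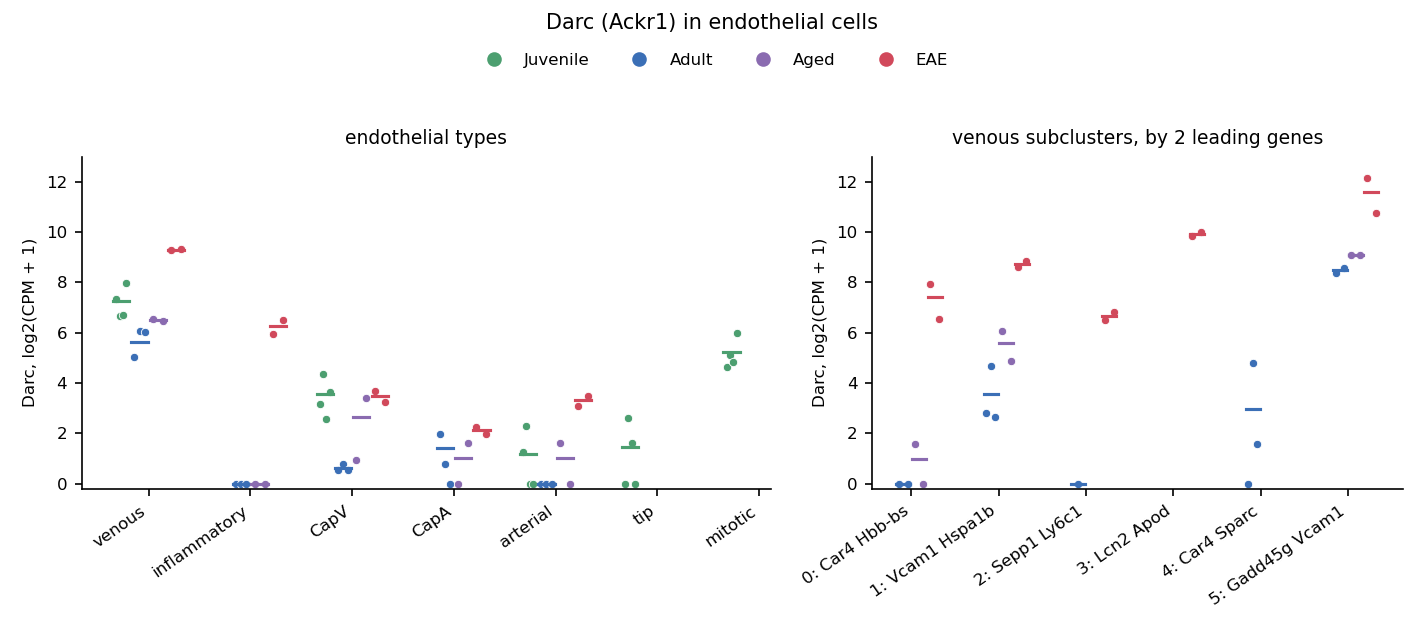
Darc in endothelial cells. The y axes give log2(CPM + 1), points are libraries (green juvenile, blue adult, purple aged, red EAE) and bars are means over units, by EC type on the left and by venous subcluster, labelled with 2 leading genes, on the right. The EAE points of venous ECs lie above all others of that type, and the Gadd45g- and Vcam1-led subcluster holds the highest EAE library, at 4516 CPM.

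Over all ECs, Darc was 4.98, 10.8 and 9.99 CPM in the adult libraries and 163 and 160 CPM in EAE, with 13.8 and 18.9 CPM in aged and 29.1, 28.0, 10.2 and 25.8 CPM in juvenile libraries. Every EAE value lay above every value of the other conditions. The EAE difference from adult was 20.9-fold (log2 difference 4.39 ± 0.46 SE, adjusted p = 0.000369) and was called in all 19 alternatives, between 4.10 and 4.70. The juvenile difference was 2.74-fold (1.45 ± 0.44 SE, adjusted p = 0.0293), but Juvenile 3 overlapped the adult range. The juvenile call was lost without Adult 1 (adjusted p = 0.106), Juvenile 1 (0.0544), Juvenile 2 (0.0573) or Juvenile 4 (0.0536), with marker scores (0.0552) and without the filter on low counts (0.0867). The aged difference was not called (0.90 ± 0.49 SE, adjusted p = 0.322). Among ECs thinned to equal depth, 0.535% of adult cells held a Darc UMI (95% interval 0.346–0.788), against 4.64% in EAE (4.13–5.20), and among venous ECs 3.19% of adult cells (1.83–5.12; 7.65% unthinned) against 24.6% in EAE (21.9–27.5; 37.3% unthinned). In choroid plexus epithelium, which stood in for free RNA, the EAE share was 0.228%, at a median of 11140 UMIs per cell against 2357 in EAE ECs. Deeper cells keep a smaller part of any free RNA when thinned. The choroid plexus shares given here and below may therefore understate the background.

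Next to venous ECs, Darc in EAE was read in the inflammatory ECs, a Lcn2-positive group of which 732 of 897 cells came from EAE. They held 60.6 and 90.6 CPM in the EAE libraries and 0 in adult and aged ones. The order in EAE was venous ECs (629 ± 15.0 CPM, SD, n = 2), inflammatory ECs (75.6 ± 21.2), smooth muscle cells (20.8 ± 13.2, on 4 UMIs), pericytes (11.9) and CapV ECs, the capillary cells of the venous side (10.1 ± 2.32), and the last 3 did not differ beyond their spread. The ECs outside the venous group held 0.318 to 0.954 CPM in adult, 17.4 and 19.7 CPM in EAE and 7.10 to 17.7 CPM in juvenile libraries. Aged 2 (6.77 CPM) stood above Aged 1 (0.739 CPM) there, and its signal lay in a subcluster of CapV ECs led by interferon-stimulated genes, with 114 CPM in Aged 2 and 3.54 CPM in Aged 1.

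Venous ECs were not uniform in Darc, and the conditions sat in different venous subclusters. Of 954 EAE cells, 333 and 329 were in those led by Sepp1 and Ly6c1 and by Lcn2 and Apod, 350 of 589 aged cells in that led by Car4 and Hbb-bs and 277 of 510 adult cells in that led by Car4 and Sparc. In the Vcam1- and Hspa1b-led subcluster, which all 3 conditions shared, Darc was 6.08, 24.7 and 5.36 CPM in adult, 65.6 and 28.6 CPM in aged and 391 and 460 CPM in EAE libraries. Across the 5 venous subclusters with enough EAE cells the EAE levels ran from 88.9 and 111 CPM in cells led by Sepp1 and Ly6c1 to 4516 and 1709 CPM in cells led by Gadd45g, Vcam1, Socs3 and Irf1, the latter from 12 and 11 EAE cells. That subcluster, of 171 cells in all, was also the highest without disease, with 333 and 375 CPM in Adult 2 and 3 and 547 and 537 CPM in the aged libraries. The Lcn2- and Apod-led subcluster held 927 and 1029 CPM in EAE. In the Car4- and Hbb-bs-led subcluster Darc was at 0 in Adult 2 and 3 and at 244 and 93.5 CPM in EAE. The subclusters are described and were not compared by a test.

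Ackr3, the scavenger of Cxcl12, had its highest level in the vessel wall in mural cells, the pericytes of capillaries and the smooth muscle cells of larger vessels, and fell in the mural cells of EAE. Pericytes and smooth muscle cells together held 472, 433 and 471 CPM in the adult libraries, 502 and 531 CPM in aged, 214 and 135 CPM in EAE and 306, 303, 467 and 361 CPM in juvenile libraries. The EAE libraries lay below all others. The difference from adult was 2.69-fold lower (log2 difference −1.43 ± 0.26 SE, adjusted p = 0.00719). It was lost without EAE 2 (−1.09, adjusted p = 0.196), with library pairs joined (−1.40, adjusted p = 0.437), and in pericytes alone (−1.12, adjusted p = 0.32) or smooth muscle cells alone (−1.43, adjusted p = 0.436). Of thinned mural cells, 38.2% (95% interval 32.0–44.7) held an Ackr3 UMI in adult and 8.86% (3.64–17.4; 7 of 79 cells) in EAE, against 2.02% and 2.62% in choroid plexus epithelium. Aged mural cells were close to adult ones (log2 difference 0.07, adjusted p = 0.975). A list of 10 leukocyte transcripts summed to 120–217 CPM in adult and 577–585 CPM in EAE mural cells, and its part in the result was not tested.

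Between juvenile and adult libraries the kinds of mural cell went opposite ways. The tests of each kind alone were not among those planned. Pericytes held 498, 633 and 924 CPM of Ackr3 in adult, 582 and 754 CPM in aged, 434 and 197 CPM in EAE and 179, 150, 348 and 102 CPM in juvenile libraries. All 4 juvenile libraries lay below the adult ones, and the difference was called (log2 difference −1.89 ± 0.40 SE, adjusted p = 0.00743). Smooth muscle cells held 284, 171 and 29.6 CPM in adult, 255 and 189 CPM in aged, 40.2 and 69.1 CPM in EAE and 329, 326, 545 and 567 CPM in juvenile libraries. Here the juvenile libraries lay above all others and were higher than adult (1.41 ± 0.40 SE, adjusted p = 0.025). Aged libraries did not differ from adult by the test in pericytes (−0.021, adjusted p = 0.996) or smooth muscle cells (0.5, adjusted p = 0.89). The smooth muscle group includes a subcluster of 108 cells led by Col3a1 and Ifitm1. For both kinds together the juvenile difference was not called (−0.46 ± 0.20 SE, adjusted p = 0.101). Pericytes and smooth muscle cells numbered 328 and 85 in adult, 139 and 67 in EAE and 133 and 379 in juvenile libraries. The part of this make-up in the joint values was not tested. Mean levels in pericytes and smooth muscle cells were 632 ± 190 and 190 ± 133 CPM in adult (SD, n = 2) and 195 ± 107 and 442 ± 132 CPM in juvenile samples (SD, n = 4), an order that turned between juvenile and adult.

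**Figure D2:**
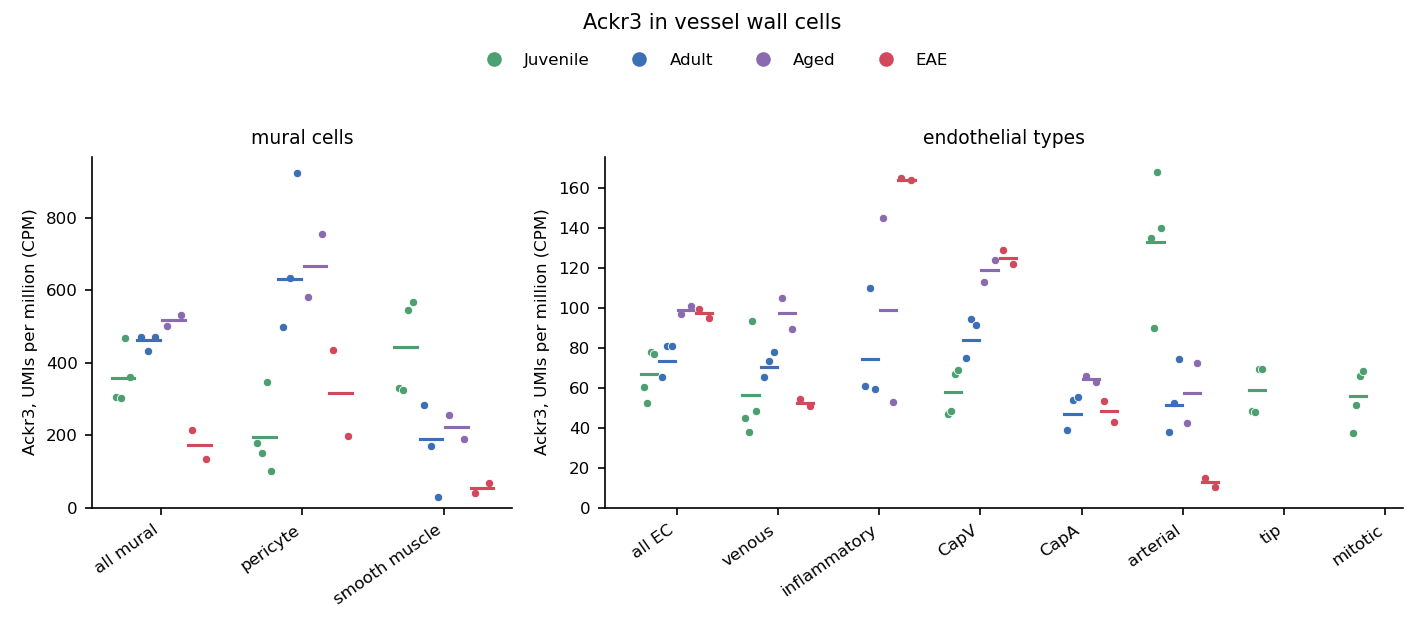
Ackr3 in the vessel wall. The y axes give CPM, points are libraries (green juvenile, blue adult, purple aged, red EAE) and bars are means over units, for mural cells on the left and ECs on the right. The EAE points of mural cells (214 and 135 CPM) lie below all others, and juvenile arterial ECs (90.1 to 168 CPM) above the other arterial samples.

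In ECs Ackr3 differed by vessel segment, and in EAE the segments did not move together. Arterial ECs held 38.1, 52.6 and 74.7 CPM in adult, 42.6 and 72.4 CPM in aged, 15.0 and 10.3 CPM in EAE and 135, 90.1, 168 and 140 CPM in juvenile libraries. The arterial values of EAE rest on few UMIs of 58 and 67 cells, and that of Adult 1 on 17 cells. Arterial ECs of EAE were not tested against those of adult. Venous ECs held 65.7, 73.6 and 77.8 CPM in adult, 105 and 89.6 CPM in aged, 54.4 and 50.7 CPM in EAE and 44.7, 38.1, 93.7 and 48.5 CPM in juvenile libraries. In both ends of the tree the EAE libraries lay below the adult and aged ones, while CapV ECs held 74.8, 94.6 and 91.7 CPM in adult and 129 and 122 CPM in EAE, and inflammatory ECs 165 and 164 CPM in EAE. Averaged over adult, aged and EAE samples, arterial ECs held 2.6-fold less Ackr3 than the other ECs (log2 difference −1.38 ± 0.17 SE, adjusted p = 2.26e-14; −0.59 with marker scores), and venous ECs held less as well (−0.36 ± 0.06 SE, adjusted p = 2.06e-06). The ECs outside the venous group held 65.5, 82.3 and 81.6 CPM in adult, 95.4 and 103 CPM in aged and 114 and 108 CPM in EAE libraries, so venous ECs were close to them in adult and aged and lower in EAE. The venous difference was 1.98-fold more negative in EAE than in adult (interaction −0.98 ± 0.15 SE, adjusted p = 8.17e-06), between −1.03 and −0.80 over 14 alternatives, all called. The ECs outside the venous group included 732 inflammatory ECs in EAE and 109 in adult, and the venous subclusters differed between conditions too. The part of this make-up in the interaction was not tested. In juvenile libraries the arterial difference had the opposite sign, with 2.16-fold more Ackr3 in arterial ECs than in other juvenile ECs (1.11 ± 0.11 SE, adjusted p = 6.89e-12), and venous (−0.37, adjusted p = 0.101) and tip ECs (−0.13, adjusted p = 0.644) were not called.

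Over all ECs the Ackr3 levels of the conditions were close, at 65.5, 81.0 and 81.0 CPM in adult, 96.8 and 101 CPM in aged, 99.7 and 95.2 CPM in EAE and 52.6 to 77.8 CPM in juvenile libraries. The EAE difference of 1.49-fold (log2 0.58 ± 0.18 SE, adjusted p = 0.0379) was lost in 7 of 19 alternatives. These include leaving out Adult 1 (adjusted p = 0.159), Aged 1 (0.0586), Aged 2 (0.0584), EAE 1 (0.151), EAE 2 (0.115) or Juvenile 1 (0.0553).

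Cxcr4, the signalling receptor of Cxcl12, was high in juvenile ECs and at or near 0 in the venous ones. All ECs held 51.4, 56.7, 35.5 and 38.1 CPM in juvenile libraries, 1.94, 3.55 and 3.78 CPM in adult, 1.64 and 2.13 CPM in aged and 6.80 and 5.57 CPM in EAE libraries. Juvenile values lay above all others, 14.7-fold over adult (log2 difference 3.88 ± 0.26 SE, adjusted p = 4.17e-07), in all 19 alternatives. Of thinned ECs, 6.19% held a Cxcr4 UMI in juvenile libraries (95% interval 5.37–7.10; 16.7% unthinned) and 0.449% in adult (0.278–0.686), against 0.294% and 0.457% in choroid plexus epithelium, so the adult EC share was at the background level. Within juvenile ECs, arterial cells held 148, 95.9, 63.4 and 79.1 CPM, which was 2.39-fold over the other ECs (1.26 ± 0.17 SE, adjusted p = 5.73e-06). Tip ECs held 57.9, 161, 30.7 and 64.8 CPM (0.90 ± 0.33 SE, adjusted p = 0.113). Venous ECs held 1, 2, 0 and 0 UMIs (1.54, 3.18, 0 and 0 CPM), less than in the other juvenile ECs (adjusted p = 5.9e-32). The juvenile venous cells, high in Darc, had a Cxcr4 UMI in 1 of 207 thinned cells (0.483%).

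In EAE, EC Cxcr4 was called higher (log2 difference 1.13 ± 0.31 SE, adjusted p = 0.0184) at a low level. The call was lost without Adult 1 (adjusted p = 0.0606) or EAE 1 (0.108), with marker scores (0.0736) and with library pairs joined (0.128). Microglia, the resident macrophages of the brain parenchyma, held 2.28, 0 and 4.23 CPM in adult, 0.599 and 4.19 CPM in aged, 21.7 and 17.7 CPM in EAE and 9.03, 12, 3.28 and 7.38 CPM in juvenile libraries. The EAE libraries lay above all others, and the difference from adult was 9.8-fold (3.29 ± 0.62 SE, adjusted p = 0.00172), called in all 19 alternatives. The share of thinned EAE microglia with a UMI was 2.36% (95% interval 1.79–3.04), against 0.317% in adult microglia and 0.797% in EAE choroid plexus epithelium. Since choroid plexus cells are deeper, their share cannot place that of EAE microglia above the background. The 10 leukocyte transcripts summed to 768–946 CPM in adult and 2000–2071 CPM in EAE microglia, and to 116–234 and 429–433 CPM in ECs, and their part in these results was not tested.

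**Figure D3:**
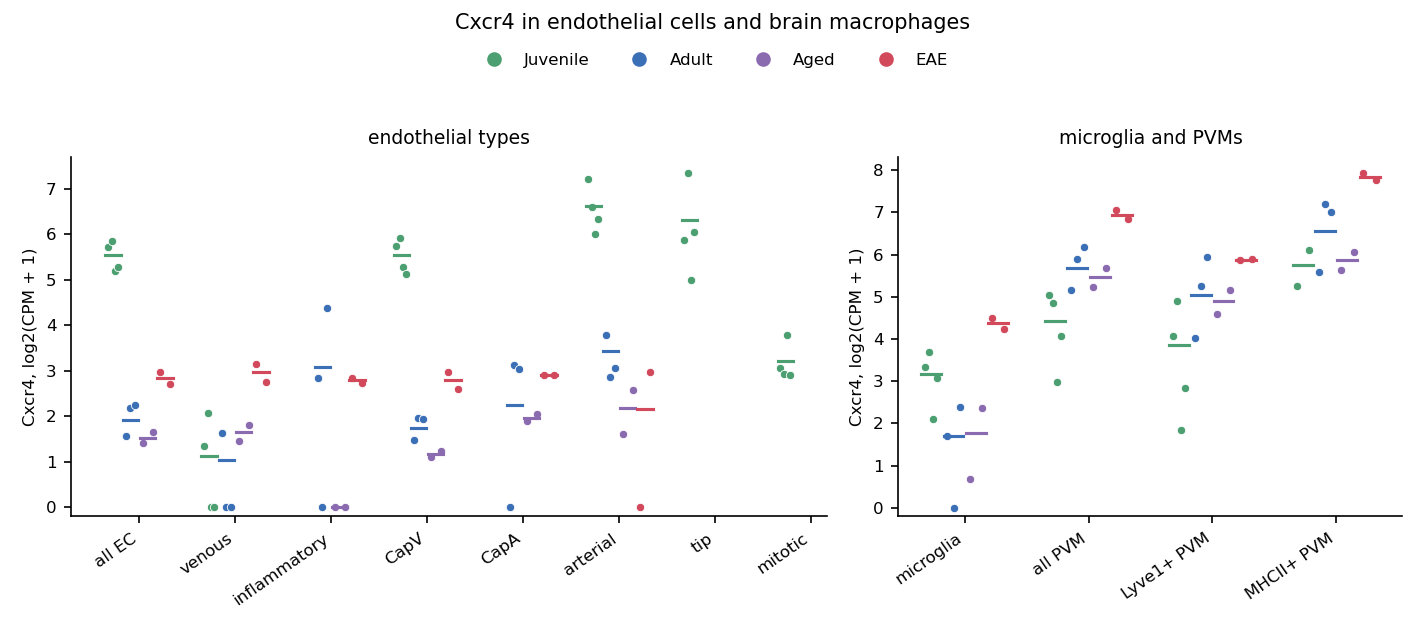
Cxcr4 in ECs (left) and in microglia and PVMs (right). The y axes give log2(CPM + 1), points are libraries (green juvenile, blue adult, purple aged, red EAE) and bars are means over units. Juvenile points lie above the others over all ECs (35.5 to 56.7 CPM) and at or near 0 in venous ECs (0 to 3.18 CPM), and EAE libraries are the highest among microglia.

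In PVMs Cxcr4 was lowest in juvenile and highest in EAE libraries, with 35, 58.6 and 71.9 CPM in adult, 36.7 and 50.1 CPM in aged, 131 and 113 CPM in EAE and 32.1, 27.9, 6.84 and 15.7 CPM in juvenile libraries. No juvenile value overlapped an adult one, and both EAE values lay above the rest. Juvenile PVMs held 2.96-fold less than adult (log2 difference −1.56 ± 0.33 SE, adjusted p = 0.00388) and EAE PVMs 2.41-fold more (1.27 ± 0.26 SE, adjusted p = 0.00146). The conditions filled different PVM subclusters, since 242 of 437 adult PVMs, from Adult 2 and 3, lay in a Jun- and Fos-led Lyve1+ subcluster in which no library of another condition had 10 cells. That subcluster held 32.9 and 72.3 CPM. MHCII+ PVMs numbered 43 beside 508 Lyve1+ PVMs in juvenile, 113 beside 324 in adult and 241 beside 295 in EAE libraries. The 10 leukocyte transcripts summed to 9709–13817 CPM in adult, 18371–19806 CPM in EAE and 2905–5129 CPM in juvenile PVMs, most of it Lyz2. S100a8 was at 14.6, 24 and 19.6 CPM in adult and 68.7 and 86.6 CPM in EAE PVMs. The part of these subclusters, cell numbers and transcripts in the PVM results was not tested. The juvenile difference was lost in 4 of 22 alternatives, with library pairs joined (adjusted p = 0.109), marker scores (0.05), finer clusters (0.09) and in MHCII+ PVMs alone (−1.05, adjusted p = 0.513). The EAE difference was lost with library pairs joined (adjusted p = 0.0776), with finer clusters (0.96, adjusted p = 0.122), without the MHCII+ subcluster led by Cd74 and Il1b (0.52, adjusted p = 0.339) and in Lyve1+ PVMs alone (0.52, adjusted p = 0.379), and was called in MHCII+ PVMs alone (1.41 ± 0.32 SE, adjusted p = 0.00492). The choices of PVM groups were made after seeing the data. MHCII+ PVMs, which express antigen-presentation genes, held 3.72-fold more Cxcr4 than Lyve1+ PVMs (1.9 ± 0.18 SE, adjusted p = 6.24e-13), a difference that was lost with finer clusters (0.24, adjusted p = 0.779). In that Cd74- and Il1b-led subcluster the EAE libraries held 308 and 280 CPM.

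Among leukocytes Cxcr4 was broad, and EAE did not differ by the test from another condition in the types compared. Monocytes or macrophages held 465 and 345 CPM in aged, 314 and 341 CPM in EAE and 411 and 394 CPM in Juvenile 3 and 4. Neutrophils held 262 and 115 CPM in aged and 407 and 304 CPM in EAE libraries (log2 difference 0.69, adjusted p = 0.133). B cells held 288, 369 and 475 CPM in adult, 165 and 188 CPM in aged and 114 and 261 CPM in EAE libraries. Lower levels were read in CD4 T cells (30.0 and 77.4 CPM in aged, 78.4 and 93.6 CPM in EAE).

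Ccr1, a receptor of inflammatory CC chemokines on myeloid cells, differed by age in microglia. In microglia it was 103, 75.1, 92.5 and 93.8 CPM in juvenile libraries, 27.4, 17.8 and 31.0 CPM in adult, 10.8 and 4.78 CPM in aged and 18.7 and 28.4 CPM in EAE libraries. The juvenile libraries lay above and the aged below all others. The juvenile level was 3.41-fold over adult (log2 difference 1.77 ± 0.24 SE, adjusted p = 0.000112), in all 19 alternatives. The aged level was 3.25-fold lower than adult (−1.70 ± 0.39 SE, adjusted p = 0.0387). That call was lost in 8 of 19 alternatives, among them leaving out Adult 1 (adjusted p = 0.154), Adult 3 (0.0828), Aged 1 (0.124), Aged 2 (0.237), Juvenile 3 (0.0522) or Juvenile 4 (0.0508). EAE and adult microglia overlapped (0.06, adjusted p = 0.909). After thinning, 10.1% of juvenile, 3.33% of adult and 0.983% of aged microglia held a UMI, and at most 0.911% of choroid plexus epithelium in any condition.

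PVMs held more Ccr1 in every library, at 254, 293 and 260 CPM in adult, 378 and 286 CPM in aged, 173 and 224 CPM in EAE and 372, 327, 347 and 406 CPM in juvenile libraries, and no condition differed from adult by the test. EAE values lay below the adult ones, but the difference was not called (log2 difference −0.28, adjusted p = 0.315). Without the Cd74- and Il1b-led subcluster it was called (−0.53 ± 0.18 SE, adjusted p = 0.0487). It was not called in Lyve1+ PVMs alone (−0.46 ± 0.2 SE, adjusted p = 0.114) or in MHCII+ PVMs alone (0.049 ± 0.27 SE, adjusted p = 0.944). Lyve1+ PVMs held 398, 327 and 278 CPM in adult and 194 and 257 CPM in EAE, and MHCII+ PVMs 165, 154 and 166 CPM in adult and 143 and 164 CPM in EAE libraries. MHCII+ PVMs held 1.88-fold less than Lyve1+ PVMs (−0.91 ± 0.12 SE, adjusted p = 5.19e-08), in all 19 alternatives.

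Cxcr3, best known as the receptor of interferon-induced chemokines on effector T cells, was also read in PVMs and fell there in EAE. PVMs held 29.2, 66.1 and 62.1 CPM in adult, 47.7 and 41.4 CPM in aged, 18.5 and 23.8 CPM in EAE and 79.2, 85.6, 119 and 94.3 CPM in juvenile libraries. The EAE values were the lowest and the juvenile ones the highest, without overlap with adult. EAE PVMs held 2.29-fold less than adult (log2 difference −1.19 ± 0.30 SE, adjusted p = 0.00652). The difference was also called in Lyve1+ PVMs alone (−1.16 ± 0.31 SE, adjusted p = 0.00804), where the EAE libraries held 25 and 31.2 CPM and the adult ones 38.2, 78.4 and 70.6 CPM, and it was lost in 3 of 21 alternatives, without EAE 1 (−1, adjusted p = 0.106), with DESeq2 (0.0819) and with library pairs joined (0.137). The Jun- and Fos-led subcluster, which held most adult PVMs and too few of the other conditions, read 81.2 and 66.9 CPM in Adult 2 and 3. In the Lyve1-led subcluster Adult 2 and 3, with 10 and 14 cells, held 94 and 19.1 CPM and the EAE libraries 22.1 and 27.8 CPM, which overlap. The juvenile excess was not called (0.63 ± 0.24 SE, adjusted p = 0.0991). MHCII+ PVMs held 3.16-fold less Cxcr3 than Lyve1+ PVMs (−1.66 ± 0.25 SE, adjusted p = 2.78e-07), lost with finer clusters (adjusted p = 0.052) and without the Cd74- and Il1b-led subcluster (0.102). Among thinned Lyve1+ PVMs, 10.0% of adult, 3.19% of EAE (95% interval 1.47–5.97) and 14.8% of juvenile cells held a UMI.

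**Figure D4:**
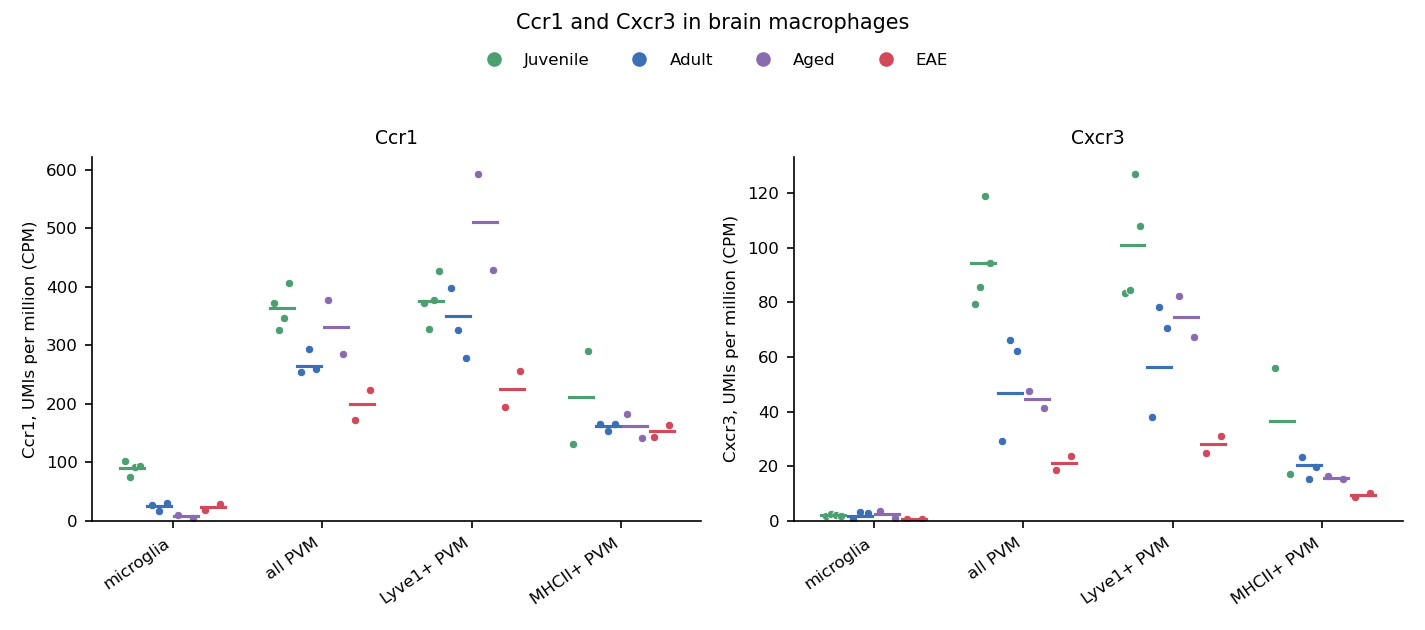
Ccr1 and Cxcr3 in resident macrophages. The y axes give CPM for microglia, all PVMs, Lyve1+ PVMs and MHCII+ PVMs, points are libraries (green juvenile, blue adult, purple aged, red EAE) and bars are means over units. Juvenile microglia (75.1 to 103 CPM) stand above the others for Ccr1, and EAE PVMs (18.5 and 23.8 CPM) below the others for Cxcr3.

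Outside the macrophages, Cxcr3 was read in lymphocytes. CD8 T cells held 115 and 17.7 CPM in Adult 1 and 2, 160 and 196 CPM in aged, 145 and 164 CPM in EAE and 41.1 and 43.7 CPM in Juvenile 3 and 4. EAE lay above juvenile (3.52-fold, log2 difference 1.82 ± 0.54 SE, adjusted p = 0.0264), a call lost in 5 of 12 alternatives, among them without Juvenile 3 (adjusted p = 0.137) or Juvenile 4 (0.139) and with marker scores (0.39, adjusted p = 0.735), while the adult values spread widely (0.89, adjusted p = 0.141). CD4 T cells held 79.9 and 155 CPM in aged and 58.2 and 73.2 CPM in EAE libraries. NK cells held 184 and 32.2 CPM in Adult 2 and 3 and 74.6 and 89.8 CPM in EAE, which lay inside the adult range.

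Ccr2, the receptor through which monocytes leave the bone marrow and enter tissue, was lower in the monocytes or macrophages of EAE than in those of aged mice. They held 983 and 824 CPM in aged, 340 and 302 CPM in EAE and 739 and 690 CPM in Juvenile 3 and 4. EAE lay below both other conditions, and the mice of these also differed in age. The difference from aged was 2.51-fold (log2 difference −1.33 ± 0.15 SE, adjusted p = 0.000278), in all 10 alternatives that could be fitted, joined library pairs not among them. That from juvenile was −0.92 ± 0.19 SE (adjusted p = 0.00877) and was lost in 5 of 12 alternatives: without EAE 2 (adjusted p = 0.0699), Juvenile 3 (0.0562) or Juvenile 4 (0.0547), without the filter on low counts (−0.46, adjusted p = 0.338) and with marker scores, where no difference was left (−0.01, adjusted p = 0.982). Of these 1704 cells, 1596 came from EAE, 55 from aged, 33 from juvenile and 20 from adult libraries, so the aged and juvenile sums rest on few cells. The conditions also sat in different subclusters. A pair of them, led by Lyz2, Cd74 and class II genes, held 902 and 582 EAE cells and under 10 cells in each other library, and a subcluster led by Lyz2 and Plac8 held 48 aged, 26 juvenile and 112 EAE cells. Within the latter Ccr2 was 911 and 800 CPM in aged, 739 and 690 CPM in juvenile and 606 and 579 CPM in EAE libraries, an order without overlap and without a test. In the same cells Ccr1 went the other way, with 76.2 and 97.4 CPM in aged and 324 and 315 CPM in EAE (4.16-fold, 2.06 ± 0.38 SE, adjusted p = 0.00327; without Aged 1 1.91, adjusted p = 0.0511). In Juvenile 3 and 4 Ccr1 was at 164 and 0 CPM. In the Lyz2- and Plac8-led subcluster alone Ccr1 was 94.9 and 110 CPM in aged and 334 and 295 CPM in EAE libraries.

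Ccr2 was also high in NK cells (382 and 111 CPM in aged, 353 and 454 CPM in EAE), CD4 T cells (379 and 433 CPM in aged, 271 and 260 CPM in EAE) and classical dendritic cells (328 and 243 CPM in adult, 187 and 245 CPM in EAE). In CD8 T cells it was 66.0 and 70.7 CPM in adult, 181 and 179 CPM in aged, 181 and 222 CPM in EAE and 13.7 and 43.7 CPM in juvenile libraries, an order without overlap between EAE and adult or juvenile. The EAE excess was 2.98-fold over adult (log2 difference 1.58 ± 0.38 SE, adjusted p = 0.00445; without Adult 1 adjusted p = 0.0893) and 6.84-fold over juvenile (2.77 ± 0.52 SE, adjusted p = 0.000585). The first call was lost in 5 of 12 alternatives and the second in 2 of 12, with marker scores to 0.69 (adjusted p = 0.349) and 1.02 (adjusted p = 0.3). Among PVMs, Ccr2 marked the MHCII+ cells, with 137, 223 and 97.9 CPM in adult, 180 and 177 CPM in aged and 94.6 and 83.4 CPM in EAE libraries. Lyve1+ PVMs held at most 15.3 CPM in any library. The difference was 34.1-fold (5.09 ± 0.33 SE, adjusted p = 8.4e-11), in the 18 alternatives in which Ccr2 passed the filter on low counts. Without the Cd74- and Il1b-led subcluster it did not pass. That subcluster held 204 ± 5.17 CPM in adult and 120 ± 9.66 CPM in EAE samples (SD, n = 2), and the other large MHCII+ subcluster, led by Wfdc17 and Lyz2, at most 13.7 CPM. Ccr2 thus did not mark all MHCII+ PVMs.

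Ccr7, the receptor for the lymph node chemokines Ccl19 and Ccl21, was highest in mature dendritic cells, with 4000 and 3854 CPM in the EAE libraries, from which 79 of 81 such cells came. With marker scores the EAE level was 1920 CPM. CD8 T cells held 256 and 442 CPM in Adult 1 and 2, 370 and 510 CPM in Juvenile 3 and 4, 16.8 and 17.4 CPM in aged and 25 and 24.5 CPM in EAE libraries. Adult and juvenile lay far above aged and EAE, without overlap. EAE cells held 12.6-fold less than adult (log2 difference −3.65 ± 0.35 SE, adjusted p = 3.28e-07) and 17.8-fold less than juvenile ones (−4.15 ± 0.34 SE, adjusted p = 3.69e-09), and did not differ from aged by the test (0.51, adjusted p = 0.593). With marker scores the difference from adult was −1.68 (adjusted p = 0.051). Of thinned CD8 T cells, 26.7% of adult (95% interval 14.6–41.9), 35.2% of juvenile, 2.88% of EAE and 2.41% of aged cells held a Ccr7 UMI. B cells held 727, 1422 and 1261 CPM in adult, 486 and 461 CPM in aged, 456 and 357 CPM in EAE and 723 and 600 CPM in juvenile libraries. EAE B cells lay 1.92-fold below adult (−0.94 ± 0.28 SE, adjusted p = 0.0236), a call lost in 5 of 13 alternatives, among them without EAE 1 (adjusted p = 0.0921) or EAE 2 (0.169) and with library pairs joined (0.432). Classical dendritic cells held 649 and 910 CPM in adult and 168 and 254 CPM in EAE libraries and were not compared with adult.

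Cxcr2, the receptor of neutrophil-attracting chemokines, reached 20 CPM in neutrophils and in no other type. Neutrophils held 220 and 163 CPM in aged and 554 and 491 CPM in EAE libraries, without overlap. The difference was 2.25-fold (log2 difference 1.17 ± 0.25 SE, adjusted p = 0.00341), and of the alternatives fitted only DESeq2 did not call it (adjusted p = 0.0583). The fit with library pairs joined was not possible here. With marker scores the EAE level was 289 CPM and the log2 difference 2.13. After thinning, 24.6% of aged (95% interval 14.8–36.9) and 45.3% of EAE neutrophils (38.5–52.3) held a UMI. Ccr1 moved the same way in these cells, with 451 and 258 CPM in aged and 836 and 654 CPM in EAE (0.82 ± 0.23 SE, adjusted p = 0.019), but was lost without Aged 2 (0.50, adjusted p = 0.307) or EAE 1 (0.70, adjusted p = 0.191) and with DESeq2 (0.191). With marker scores the EAE level of Ccr1 was lower as well. A low Cxcr2 signal was read in juvenile microglia, with 10, 7, 16 and 12 UMIs (2.91, 2.05, 5.83 and 5.21 CPM), where the adult and aged libraries held none. It was called against adult (adjusted p = 0.0207) and lost without Adult 1 (0.101) or with library pairs joined (0.0923). Of thinned juvenile microglia 0.72% held a UMI (95% interval 0.475–1.05), against 0 of 630 adult cells, which allows up to 0.584% and overlaps the juvenile interval.

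Cxcr6, the receptor of Cxcl16 on tissue T cells, was highest in CD4 T cells among the named types. They held 1757 and 1269 CPM in aged and 958 and 1001 CPM in EAE libraries. The EAE level was 1.41-fold lower (log2 difference −0.50 ± 0.12 SE, adjusted p = 0.00154), but the call was lost without Aged 1 (−0.02, adjusted p = 0.962) or EAE 1 (adjusted p = 0.0544), with DESeq2 (0.22) and without the filter on low counts (0.661). CD8 T cells held 264 and 70.7 CPM in adult, 416 and 305 CPM in aged, 450 and 467 CPM in EAE and 13.7 and 0 CPM in juvenile libraries. Juvenile cells, with 1 UMI in all, lay below the rest (EAE against juvenile, adjusted p = 1.9e-06), and EAE was 2.36-fold over adult (1.24 ± 0.31 SE, adjusted p = 0.00659), a call lost with library pairs joined (adjusted p = 0.255). In NK cells Cxcr6 was 138 and 306 CPM in Adult 2 and 3, 399 and 266 CPM in aged, 31.4 and 33.1 CPM in EAE and 32.1 and 385 CPM in Juvenile 3 and 4. EAE NK cells held 9.48-fold less than aged ones (−3.25 ± 0.48 SE, adjusted p = 5.38e-09), without overlap, and the call was lost with marker scores (−1.75, adjusted p = 0.157). The difference of EAE from juvenile NK cells (−2.30 ± 0.70 SE, adjusted p = 0.0256) rested on Juvenile 4, since Juvenile 3 was at the EAE level, and without Juvenile 4 it was 0.23 (adjusted p = 0.963).

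**Figure D5:**
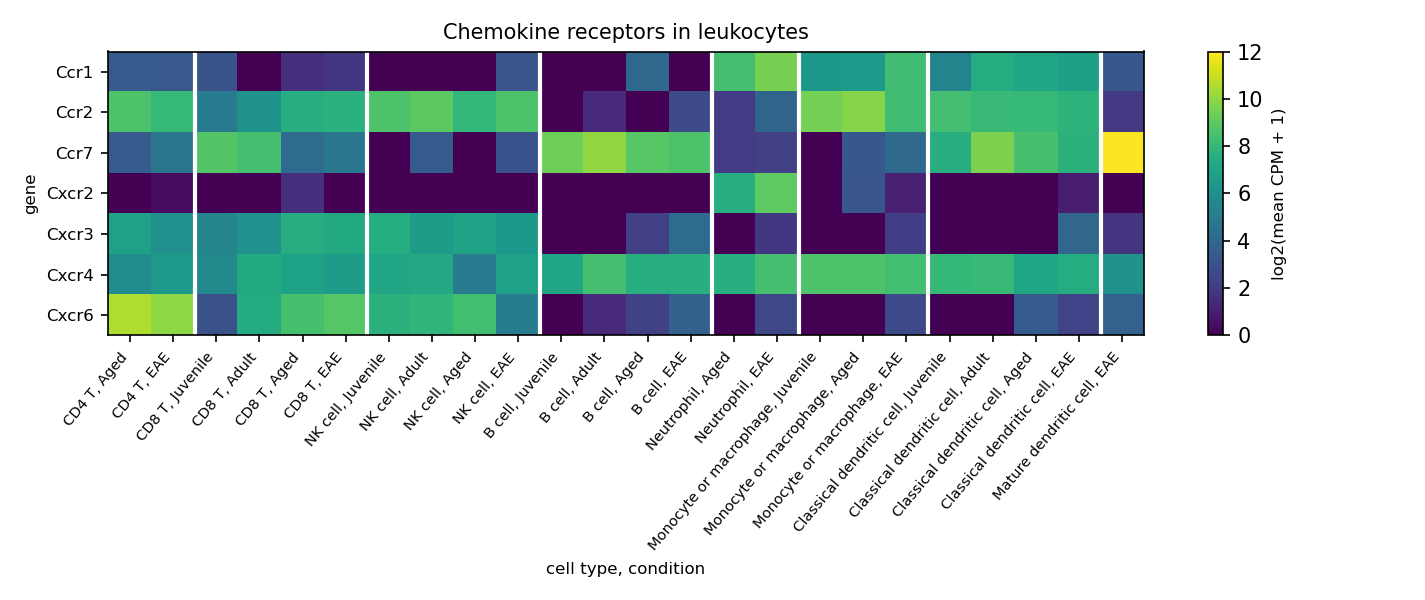
The 7 signalling receptors in 8 leukocyte types by condition. Colour gives log2(mean CPM + 1) over units, with no spread shown, and combinations with fewer than 10 cells in each library have no column. Ccr7 is brightest in EAE mature dendritic cells (3927 CPM), Cxcr2 in neutrophils and Cxcr6 in aged CD4 T cells.

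Further calls were read at levels near the background. In ECs, Cxcr6 was 1.11, 1.5 and 2.30 CPM in adult and 5.99 and 5.10 CPM in EAE libraries (log2 difference 1.92 ± 0.48 SE, adjusted p = 0.0117; without EAE 1 adjusted p = 0.0824, without EAE 2 0.0508, with library pairs joined 0.119). In juvenile ECs it was 0.199, 0.397, 1.12 and 0.162 CPM, with 1.12 CPM overlapping adult (−1.61 ± 0.57 SE, adjusted p = 0.0391), and this call was lost in 11 of 19 alternatives, among them without Adult 3 (0.113), Aged 1 (0.0527), Aged 2 (0.0511), EAE 1 (0.0612), EAE 2 (0.0599), Juvenile 1 (0.0876), Juvenile 2 (0.0734) or Juvenile 4 (0.0939). In microglia Cxcr6 was 1.52, 4.86 and 0 CPM in adult and 6.37 and 4.74 CPM in EAE libraries, which overlap (1.73 ± 0.60 SE, adjusted p = 0.0473), and the call was lost in 16 of 19 alternatives, with adjusted p up to 0.214 and in every one that left out a library other than Adult 2 or Juvenile 2. Microglial Darc was 0.76, 0 and 1.41 CPM in adult and 6.15 and 4.12 CPM in EAE (adjusted p = 0.0181; without Adult 1 0.0913, lost in 3 of 14 alternatives), with 0.745% of thinned EAE microglia holding a UMI. Microglial Ackr3 was 10.6, 4.86 and 7.06 CPM in adult and 3.29 and 2.27 CPM in EAE (adjusted p = 0.0328). That call was lost in 8 of 19 alternatives, among them leaving out Adult 1 (adjusted p = 0.332), EAE 1 (0.0616) or EAE 2 (0.185). Ccr7 in ECs was 1.38 to 2.43 CPM in adult and at most 0.421 CPM in juvenile libraries (adjusted p = 0.003). The leukocyte transcripts given above were also higher in EAE, and in juvenile ECs they summed to 14.9–33.7 CPM. Their part in these calls was not tested.

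Counted over the 9 genes, in ECs 4 of the 7 that passed the filter on low counts were called higher in EAE and none lower, where 27.4% of 13682 genes were called, this and the following shares of all genes being for both directions together. The median log2 difference was 1.13 for the 7 and 0.01 for all genes tested. Juvenile ECs had 2 called higher and 2 lower (43% of all genes called), with a median of −1.46 against −0.04. In aged ECs edgeR called none (5.11% of all genes), with 3 at an unadjusted p under 0.05 and 0 called by DESeq2. Some were called without the filter on low counts, with all libraries separate and with the replicate number as a block. In microglia, 3 of 7 were called higher and 1 lower in EAE (25.8% of all genes), 2 higher in juvenile (25%) and 1 lower in aged (2.08%) libraries. In PVMs, 1 of 4 was called higher and 1 lower in EAE (16.5%), 1 lower in juvenile (9%) and none in aged (1.85%; 1 at an unadjusted p under 0.05, 0 by DESeq2). Of 2 tested in mural cells, 1 was called lower in EAE (1.39%), none in aged (0.0324%) and none in juvenile libraries (24.9%), the latter 2 with 1 each at an unadjusted p under 0.05 and 0 by DESeq2. These comparisons share the adult samples. The counts for EAE ECs were 1, that of Darc, without EAE 1 or with library pairs joined, and 2 without EAE 2. For EAE microglia they were 1 without Adult 1 or EAE 1 and 2 without EAE 2, Juvenile 1 or Juvenile 3, for juvenile ECs 2 without Juvenile 1 or Juvenile 4, for juvenile microglia 1 without Adult 1 or Juvenile 4, for EAE PVMs 1 without EAE 1 and for juvenile mural cells 1 without Juvenile 3.

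Among EC types, 1 of 6 was called higher and 1 lower in venous ECs (28.4% of all genes), 1 in the interaction with EAE (2.87%) and 2 lower in arterial ECs (29.6%). Within juvenile ECs, venous cells had 1 higher and 1 lower (20.6%), arterial cells 2 higher and 1 lower (33.2%) and tip cells 1 lower of 3 (20.4%). Between MHCII+ and Lyve1+ PVMs, 2 were higher and 2 lower of 4 (21.6%). For EAE against other conditions in leukocytes, CD8 T cells had 2 of 5 higher and 1 lower against adult (15.8%), 3 higher and 1 lower against juvenile (11.3%) and none against aged (14.7%; 0 at an unadjusted p under 0.05). CD4 T cells had 1 of 5 lower (8.97%), neutrophils 2 of 3 higher (14.2%), and monocytes or macrophages 1 higher and 1 lower of 3 against aged (31.6%) and against juvenile (22.6%). NK cells had 1 of 3 lower against aged (10.4%) and against juvenile (5.92%), and B cells 1 of 2 lower against adult (17.4%). None was called in B cells against aged (15.8%; 0 at an unadjusted p under 0.05) or juvenile (19.3%; 1), nor in classical dendritic cells against aged (12.7%; 0) or juvenile (16.1%; 1). Over all 14 leukocyte comparisons edgeR made 17 calls and DESeq2 10.

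The other receptors and the chemokines themselves were counted from lists of 15 and 36 genes. In EAE ECs 1 of 9 receptors tested rose (Ccrl2, an atypical receptor-like protein) and 1 fell (Cmklr1, the chemerin receptor), and of 29 chemokines 9 rose and 2 fell, with median log2 differences of −0.05 and 1.01 (0.01 over all genes, 27.4% of which were called). Among these Ccl5 rose by 3.07 (log2, adjusted p = 6.85e-06), Ccl8 by 3.98 (adjusted p = 0.000163) and Cxcl16, the ligand of Cxcr6, by 1.20 (adjusted p = 0.0076). Ccrl2 held 55.6, 55.9 and 60.2 CPM in adult and 65.6 and 64.1 CPM in EAE ECs, below the 68.3 and 70.9 CPM of aged ones. Cmklr1 held 3.32, 11.5 and 9.72 CPM in adult and 2.09 and 3.25 CPM in EAE ECs, so Adult 1 was near the EAE level. The leukocyte transcripts rose in the same ECs from 116–234 to 429–433 CPM, and Ccl8 was at 35.1 and 30.9 CPM in EAE ECs against 11500 and 11200 CPM in EAE PVMs. Their part in these values was not tested. In juvenile ECs 1 receptor of 9 was higher and 1 lower and 4 chemokines were higher and 10 lower, with medians of −0.50 and −0.85 (−0.04 over all genes, 43% of which were called). Ackr2, the scavenger of inflammatory CC chemokines, was read at 23.3, 24.6, 40.0 and 33.1 CPM in juvenile and at 0, 0.41 and 0.135 CPM in adult ECs (adjusted p = 9.88e-07), without overlap. Aged ECs had no receptor of 9 tested and 2 of 29 chemokines tested called, where 5.11% of all genes were called.

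Cxcl12, the shared ligand of Cxcr4 and Ackr3, was lower in EAE and juvenile than in adult and aged libraries in ECs and mural cells. ECs held 1800, 1770 and 1840 CPM in adult, 1840 and 1850 CPM in aged, 1120 and 1160 CPM in EAE and 406, 351, 617 and 595 CPM in juvenile libraries. Adult and aged values lay together, above EAE and above juvenile. The juvenile difference from adult was −1.79 ± 0.21 (log2, SE, adjusted p = 6.58e-05). Mural cells held 378, 360 and 295 CPM in adult and 118 and 135 CPM in EAE (−1.5 ± 0.28 SE, adjusted p = 0.00934), and 69.0 to 143 CPM in juvenile libraries (−2, adjusted p = 6.35e-06). Lower Cxcl12 in EAE than in adult was also read in microglia (−1.39, adjusted p = 0.000194) and PVMs (−1.5, adjusted p = 0.000537), and than in aged in CD4 T cells (−2.27) and neutrophils (−2.01). Whether transcripts from ECs made up part of these values, those of mural cells included, was not tested. Within ECs, Cxcl12 was lower in venous (−1.96 ± 0.04 SE, adjusted p = 1.9e-44) and arterial cells (−3.66) than in other ECs. The venous difference was smaller in EAE than in adult (interaction 0.79 ± 0.09 SE, adjusted p = 6.27e-09), with 360, 356 and 296 CPM in adult and 409 and 364 CPM in EAE venous ECs. Aged venous ECs held the most, 648 and 738 CPM. In juvenile ECs it was higher in arterial cells (1.48, adjusted p = 2.5e-20) and lower in venous (−3.95) and tip cells (−4.26).

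In EAE microglia, where 25.8% of all genes were called, 7 of 22 chemokines rose and 2 fell, among them Cxcl9, a ligand of Cxcr3 (log2 difference 6.64), and Ccl12, a ligand of Ccr2 (2.22), which rose, while 1 of 5 other receptors rose (Ccrl2, 1.12, adjusted p = 0.000124) and 1 fell (Cx3cr1, the fractalkine receptor, −0.86, adjusted p = 0.00108). The median was 0.12 for the chemokines and −0.39 for the receptors. In EAE PVMs, where 16.5% of all genes were called, Cx3cr1 also fell (−1.32, adjusted p = 1.33e-05), the only one of 4 other receptors called, and 7 of 21 chemokines rose, such as Ccl6 (2.82) and Ccl9 (1.52), and 4 fell, beside the leukocyte transcripts given above for PVMs. MHCII+ PVMs held more Ccrl2 (2.96) than Lyve1+ PVMs. In monocytes or macrophages of EAE against aged libraries, Ccrl2 (2.01) was higher and Cx3cr1 (−1.21) lower.

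Each receptor had genes whose levels ran alike over the 88 combinations of cell type and condition, among 14673 genes, by Pearson's r of log2(CPM + 1). The points share libraries, and r is a description. Darc had the loosest neighbours, led by Sele, the endothelial adhesion molecule E-selectin (r = 0.626), and Gpr182 (0.597). Ackr3 ran most like Tnks1bp1 (0.841), Gjc1 (0.827) and the basement membrane collagen Col4a2 (0.815). Cxcr2 ran with Stfa2 (0.919), Ccr1 with Igsf6 (0.878), Cxcr6 with the T cell receptor component Cd3g (0.901), Cxcr3 with the costimulatory receptor Cd28 (0.890), Ccr2 with the transcription factor Runx3 (0.826), Ccr7 with Btla (0.815) and Cxcr4 with AB124611 (0.745). Between the 9 genes r was highest for Cxcr3 and Cxcr6 (0.733) and lowest for Ackr3 and Ccr7 (−0.554).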

How the data were processed

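Libraries were made from myelin-depleted cortex, pooled from several mice, with the 10x 3′ v2 kit. Per the labels and the submitters' processing notes, the authors used bcl2fastq 2.19.1.403, UMI-tools 0.5.3, STAR 2.5.3a and featureCounts 1.6.1 with mm10. The paper's methods name other versions of UMI-tools, STAR and featureCounts. The authors deposited UMI counts per gene and barcode, neither normalized nor filtered by cell quality. Barcodes with 500 to 6000 genes and at most 25% mitochondrial UMIs were kept. Cells were clustered in Seurat 5.3.0 (R 4.3.3; 2000 variable genes, 12 principal components, resolution 0.5), types were subclustered, some after anchor integration, and named from marker lists, with naming limits set after the clusters had been seen. Scrublet (scanpy 1.11.5) called 0.0421% of Aged 2 and 0.609% to 2.49% of the other libraries doublets, so in Aged 2 it may not have worked. These cells were kept, and removed in an alternative.

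UMIs were summed per type and library with at least 10 cells and tested by edgeR 4.0.16's robust quasi-likelihood test after TMM scaling and filterByExpr, with Benjamini-Hochberg adjustment at 0.05. Conditions of a type were fitted together. EC types of adult, aged and EAE samples, and the PVM groups, were compared within samples, with the sample as a block, and juvenile EC types within the 4 juvenile libraries. SE is the log2 difference divided by the square root of F. Libraries were summed where their chi-square was at most 1.1 times that of 100 random divisions, as for Adult 2 and 3 (0.736 in ECs, 1 in microglia). Other pairs of a condition stood at 1.17 or above. In ECs, Juvenile 1 and 2 stood at 1.21 and Juvenile 3 and 4 at 1.49, and juvenile pairs across these at 7.42 to 9.08. DESeq2 1.42.0, other filters, groupings and left-out libraries were alternatives. The fits were checked on simulated counts. All 9 genes are named, of the other lists at most the 5 with the lowest adjusted p in a comparison, and the 3 most alike genes of each receptor at most. The genes and lists were chosen with earlier results of these data known.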

Additional observations from a re-analysis of the deposited data

Results flagged for a closer look

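Ackr3 in venous ECs, relative to other ECs, differed between EAE and adult by a test of the difference itself (log2 −0.98, edgeR interaction, adjusted p = 8.17e-06). Adult venous ECs held 65.7, 73.6 and 77.8 CPM and EAE ones 54.4 and 50.7 CPM, while CapV ECs held 74.8, 94.6 and 91.7 CPM in adult and 129 and 122 CPM in EAE. The make-up of both EC groups differed between the conditions, and its part in this result was not tested.

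In 3 cases every library of a condition lay above all adult samples in one cell type and below all of them in another, with Adult 2 and 3 counted as 1 sample, and the difference between the types was not tested. Ccr1 was 18.3 CPM lower in aged than in adult microglia (a difference of −18.3 CPM) and 66.4 CPM higher in aged than in adult PVMs. The PVM difference was not called, and with libraries taken singly Adult 2 lay above Aged 2. The microglial call was lost in 8 of 19 alternatives. Cxcr4 was 42.6 CPM higher in juvenile than in adult ECs and lower in juvenile PVMs (−29.4 CPM). Ackr3 was 24.2 CPM higher in EAE than in adult ECs and lower in EAE mural cells (−288 CPM).

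Receptor transcripts were also read in cells outside the vascular and leukocyte types. Cxcr4 was at 136 CPM in ependymal cells (401 UMIs over 744 cells, 100 to 209 CPM over 6 libraries), 60.1 CPM in neurons or neuroblasts (117 UMIs, 0 to 97 CPM over 10 libraries) and 21.3 CPM in astrocytes (107 UMIs, 0 to 43 CPM over 11 libraries). Ackr3 was at 85.7 CPM in fibroblasts (481 UMIs, 0 to 113 CPM over 11 libraries) and 45 CPM in ependymal cells (133 UMIs, 28.6 to 118 CPM over 6 libraries). Darc was at 40.1 CPM in red blood cells and erythroid cells (25 UMIs over 64 cells, 19.2 to 137 CPM over 3 libraries).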

How the results depend on the processing

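Of 51 differences of single receptors that were called, 20 were called in every alternative that tested them and 31 were lost in at least 1. Alternatives in which the receptor failed the filter on low counts, or in which no fit could be made, are not counted. The libraries of a condition can stem from 1 preparation, and the fit with library pairs joined is the one that allows for this. It could not be made for CD4 T cells, NK cells, neutrophils and monocytes or macrophages, for which it leaves 1 sample per condition. The sign reversed for Cxcr6 in EAE against juvenile NK cells, to 1.13 with the replicate number as a block and to 0.23 without Juvenile 4, and without other single libraries the difference reached −3.14. In the following counts the reported value stands in parentheses. With DESeq2 the number of genes called was 663 (1254) for EAE PVMs, 80 (141) for aged PVMs, 382 (685) for juvenile PVMs, 1 (2) for aged mural cells, 954 (1535) for juvenile mural cells, 1719 (3324) for venous against other ECs, 109 (336) for the venous interaction with EAE, 1381 (2248) for juvenile tip ECs, 1317 (2291) for juvenile venous ECs, 2444 (3692) for juvenile arterial ECs and 3021 (4868) for the 14 leukocyte comparisons, and that of the 9 receptors 1 (4) for EAE microglia, 1 (2) for EAE PVMs, 2 (1) for juvenile tip ECs and 10 (17) for the 14 leukocyte comparisons. Without the filter on low counts the number of genes called was 1165 (699) for aged ECs, 644 (235) for aged microglia, 306 (141) for aged PVMs, 268 (86) for EAE mural cells and 32 (2) for aged mural cells, and that of the 9 receptors 2 (0) for aged ECs, 2 (4) for EAE microglia and 2 (1) for juvenile tip ECs. With all 11 libraries separate the number of genes called was 1395 (699) for aged ECs and 278 (141) for aged PVMs, and that of the 9 receptors 1 (0) for aged ECs, 2 (4) for EAE microglia and 2 (1) for the venous interaction with EAE. With library pairs joined the number of genes called was 591 (3752) for EAE ECs, 1 (699) for aged ECs, 2605 (5890) for juvenile ECs, 800 (2915) for EAE microglia, 0 (235) for aged microglia, 993 (2823) for juvenile microglia, 418 (1254) for EAE PVMs, 9 (141) for aged PVMs, 233 (685) for juvenile PVMs, 2 (86) for EAE mural cells, 0 (2) for aged mural cells, 630 (1535) for juvenile mural cells, 153 (336) for the venous interaction with EAE and 1972 (3379) for arterial against other ECs, and that of the 9 receptors 1 (4) for EAE ECs, 1 (4) for EAE microglia, 0 (1) for aged microglia, 1 (2) for juvenile microglia, 0 (2) for EAE PVMs, 0 (1) for juvenile PVMs, 0 (1) for EAE mural cells, 2 (1) for the venous interaction with EAE and 2 (1) for juvenile tip ECs. With the replicate number as a block the number of genes called was 1317 (699) for aged ECs, 520 (235) for aged microglia, 251 (141) for aged PVMs and 4 (2) for aged mural cells, and that of the 9 receptors 2 (0) for aged ECs, 2 (4) for EAE microglia and 0 (1) for aged microglia. With cells named by a marker score the number of genes called was 584 (86) for EAE mural cells, 1 (2) for aged mural cells, 2077 (3324) for venous against other ECs, 2145 (3379) for arterial against other ECs, 1189 (2248) for juvenile tip ECs, 1461 (2291) for juvenile venous ECs, 2248 (3692) for juvenile arterial ECs, 735 (1416) for MHCII+ against Lyve1+ PVMs and 7794 (4868) for the 14 leukocyte comparisons, and that of the 9 receptors 2 (4) for juvenile ECs, 2 (4) for EAE microglia, 0 (1) for juvenile PVMs and 1 (2) for venous against other ECs. CPM levels that moved with marker scores were those of Ccr1 (419) and Cxcr2 (289) in EAE neutrophils, Ccr2 (727) and Cxcr4 (269) in aged monocytes or macrophages, Ccr7 in EAE mature dendritic cells (1920) and Darc in EAE venous ECs (328). At clustering resolution 0.9 the number of genes called was 398 (1416) for MHCII+ against Lyve1+ PVMs, and that of the 9 receptors 1 (2) for EAE PVMs, 0 (1) for juvenile PVMs, 2 (1) for the venous interaction with EAE and 2 (4) for MHCII+ against Lyve1+ PVMs. Without the Cd74- and Il1b-led subcluster the number of genes called was 313 (1416) for MHCII+ against Lyve1+ PVMs, and that of the 9 receptors 1 (4) for MHCII+ against Lyve1+ PVMs. In pericytes alone the number of genes called was 134 (86) for EAE mural cells and 26 (2) for aged mural cells, and that of the 9 receptors 0 (1) for EAE mural cells and 1 (0) for juvenile mural cells. In smooth muscle cells alone the number of genes called was 17 (86) for EAE mural cells, 0 (2) for aged mural cells and 526 (1535) for juvenile mural cells, and that of the 9 receptors 0 (1) for EAE mural cells and 1 (0) for juvenile mural cells. In Lyve1+ PVMs alone the number of genes called was 454 (685) for juvenile PVMs, and that of the 9 receptors 1 (2) for EAE PVMs. In MHCII+ PVMs alone the number of genes called was 408 (1254) for EAE PVMs, 29 (141) for aged PVMs and 91 (685) for juvenile PVMs, and that of the 9 receptors 1 (2) for EAE PVMs and 0 (1) for juvenile PVMs. Leaving out 1 library at a time, the number of genes called ranged from 1703 to 3782 (3752) for EAE ECs, 79 to 979 (699) for aged ECs, 1583 to 2975 (2915) for EAE microglia, 14 to 251 (235) for aged microglia, 1639 to 2740 (2823) for juvenile microglia, 637 to 1396 (1254) for EAE PVMs, 24 to 313 (141) for aged PVMs, 23 to 148 (86) for EAE mural cells, 0 to 2 (2) for aged mural cells, 741 to 1574 (1535) for juvenile mural cells and 2844 to 3027 (4868) for the 14 leukocyte comparisons, and that of the 9 receptors from 1 to 5 (4) for EAE ECs, 2 to 5 (4) for juvenile ECs, 1 to 4 (4) for EAE microglia, 0 to 1 (1) for aged microglia, 1 to 2 (2) for juvenile microglia, 1 to 2 (2) for EAE PVMs, 0 to 1 (1) for EAE mural cells, 0 to 1 (0) for juvenile mural cells, 1 to 2 (1) for the venous interaction with EAE and 1 to 2 (1) for juvenile tip ECs. Why these counts moved was not tested, except that left-out libraries and finer groups leave fewer samples or cells. No pairing of samples by the replicate numbers of the labels was seen. Deviations correlated between −0.179 and 0.174 over 13 pairs with the same number and between −0.174 and 0.179 over 31 pairs with different numbers. They were taken from the mean of each condition, so those of the aged libraries mirror each other, as do those of EAE. The likeness of these ranges therefore cannot decide whether samples were paired. Besides the reversed Cxcr6 difference in NK cells, the block ended 4 calls of single receptors, Cxcr6 (1.43) and Ackr3 (−1.28) in EAE microglia, Ccr1 in aged microglia (−1.62) and Ccr7 in EAE B cells (−0.90). DESeq2's scaling moved the median of all genes by under 0.1, but the share of calls that were higher went from 46.1% to 28.7% in aged and 35.2% to 20.7% in juvenile PVMs, from 50% to 100% in aged mural cells, from 59% to 73.1% and 77.2% to 88.2% in NK cells against aged and juvenile, from 67.1% to 77.5% in B cells against juvenile, from 49.1% to 35.7% in neutrophils, from 57.4% to 41.4% in classical dendritic cells against aged and from 60.9% to 50.9% in monocytes or macrophages against juvenile. Depth limits the receptors read at a few CPM, and types with under 10 cells in a library could not be compared.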

Other observations

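A leukocyte subcluster of 75 cells that rested on too few markers to be named, led by Vps37b, Gata3, Areg and Rora, held high levels of a pair of receptors. Its Cxcr6 level was 753 CPM in Adult 2 and 1184 CPM in Aged 2, and its Ccr2 level 587 and 611 CPM in the same libraries. Cycling T cells, of which 193 of 216 came from EAE, held 356 and 281 CPM of Cxcr6, 162 and 166 CPM of Ccr2, 78.7 and 64.3 CPM of Cxcr4 and 50 and 48.9 CPM of Cxcr3 in the EAE libraries.

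Cxcl13, the ligand of Cxcr5, was at 0 in adult and juvenile PVMs and at 616 and 618 CPM in aged and 128 and 237 CPM in EAE PVMs. In the aged libraries it lay in MHCII+ PVMs (1150 and 1240 CPM, against 25.7 and 2.49 CPM in Lyve1+ PVMs), and in EAE these groups held 238 and 468 CPM and 54.3 and 113 CPM. MHCII+ cells numbered 113 beside 324 Lyve1+ cells in adult and 278 beside 254 in aged libraries.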
